A study of Mus musculus with 48 samples.

Results

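The HoxD cluster genes are the 9 genes *Hoxd1*, *Hoxd3*, *Hoxd4*, *Hoxd8*, *Hoxd9*, *Hoxd10*, *Hoxd11*, *Hoxd12* and *Hoxd13*, and they were taken by name from the rows of the count table. Rows were found for 7 of the 9 among 16510 genes, and *Hoxd1* and *Hoxd12* were not analysed here. The data were single-cell RNA sequencing of the mouse hypothalamus at E18.5, with unique molecular identifiers (UMIs) counted per gene in 14121 cells of 48 libraries. Control embryos carried *Eed fl/fl* without Cre (6 embryos of 4 litters, 2 female and 4 male, 7186 cells), and *Eed-cKO* embryos carried *Eed fl/fl* with *Sox1-Cre/+* (9 embryos of 6 litters, 5 female and 4 male, 6935 cells). Both groups therefore held the floxed allele on a mixed B6:129S1 background, and the groups differed in Cre. *Sox1-Cre* is active in the early central nervous system, and the authors took vascular cells, blood cells and microglia as not targeted by it. Whether it acted in meningeal cells was not tested here. No litter, read from the leading number of the library name, held both genotypes, so litter and genotype cannot be told apart. *Eed* tags checked nothing, since a 3′ tag of a floxed gene can lie outside the deleted part. In neuron-like cells *Eed* stood between 27.5 and 32.7 CPM (counts per 1000000 UMIs) in the 6 control embryos and between 17.9 and 27.4 CPM in the 9 *Eed-cKO* embryos.

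Hox genes encode homeodomain transcription factors that give cells their place along the head-to-tail axis. Within a cluster, the genes at one end (here *Hoxd1* and *Hoxd3*) are used furthest forward in the embryo and those at the other end (here *Hoxd13*) furthest back, and the forebrain is normally without Hox expression. The cluster is also used in limb and genital development. Polycomb repressor complex 2 (PRC2), of which *Eed* is a core subunit, trimethylates lysine 27 of histone H3 and keeps Hox clusters silent where they are not used. PRC2 is known to occupy promoters rich in CG dinucleotides.

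The 9 genes lie on the forward strand of chromosome 2 (mm10) within 96.8 kb, from *Hoxd13* at position 74668310 to the end of *Hoxd1* at 74765142. The promoters of 3 members are shown, since the comparison of neuron-like with astrocyte-like cells is described mainly through them, as the 250 bases before the annotated start from RefSeq (GRCm38.p6). CG dinucleotides are in capitals. They are *Hoxd8* (chr2:74704365-74704614), *Hoxd10* (chr2:74691641-74691890) and *Hoxd13* (chr2:74667975-74668224), all on the forward strand.
Hoxd8: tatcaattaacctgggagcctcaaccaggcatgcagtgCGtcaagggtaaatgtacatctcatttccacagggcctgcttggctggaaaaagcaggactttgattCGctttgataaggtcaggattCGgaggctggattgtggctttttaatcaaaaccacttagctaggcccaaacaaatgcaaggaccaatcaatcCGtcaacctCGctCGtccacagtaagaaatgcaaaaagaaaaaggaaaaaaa
Hoxd10: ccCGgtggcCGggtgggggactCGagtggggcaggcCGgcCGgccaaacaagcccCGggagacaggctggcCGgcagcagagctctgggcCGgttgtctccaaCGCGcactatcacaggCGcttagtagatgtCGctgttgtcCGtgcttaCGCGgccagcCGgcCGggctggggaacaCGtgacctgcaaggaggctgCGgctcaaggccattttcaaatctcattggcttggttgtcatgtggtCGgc
Hoxd13: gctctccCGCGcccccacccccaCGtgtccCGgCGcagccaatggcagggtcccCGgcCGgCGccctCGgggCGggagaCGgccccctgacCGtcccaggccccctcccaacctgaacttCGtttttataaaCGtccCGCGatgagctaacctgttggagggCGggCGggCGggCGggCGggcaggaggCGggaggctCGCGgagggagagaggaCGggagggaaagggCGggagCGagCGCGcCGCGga
The *Hoxd8* window held 6 CG, a number reached by 50.4% of the 32851 mouse promoters in the same table. The *Hoxd10* window held 20, reached by 17.9% of promoters, and the *Hoxd13* window held 31, reached by 5.19%. The median promoter held 6. The letters TATAAA, searched on both strands, were in the *Hoxd13* window and in neither of the other windows shown, and 12.4% of all promoters held them. *Hoxd8*, *Hoxd9* and *Hoxd13* shared no exonic base with another annotated gene. *Hoxd3* has 4191 exonic bases, and its same-strand overlaps with *Hoxd4* and with *Gm28230* added up to 2613 bases. For *Hoxd4*, with 2948 exonic bases, the overlaps with *Hoxd3* and with *Gm28230* added up to 1542. A base shared with more than 1 gene is counted for each in these sums. *Hoxd3* and *Hoxd4* also overlapped the antisense *Hoxd3os1*, and *Hoxd10* and *Hoxd11* shared 104 and 455 exonic bases with *Gm28309*. UMIs in the shared stretches cannot be assigned to 1 gene of a pair.

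Libraries held 163 to 1207 cells, and embryos held 658175 to 7487417 UMIs in all. Of the cell barcodes, 13918 were seen in 1 library, 100 in 2 and 1 in 3, which touched 203 cells, 20 of them *Eed-cKO* cells with a HoxD UMI. Cells were clustered without any Hox gene or Hox noncoding RNA, and clusters were named only where at least 3 markers of a fixed list were found. All-Hypo cells are all cells outside the endothelial-like, pericyte-like, leptomeningeal-like and microglia-like clusters (6864 control and 6471 *Eed-cKO* cells). In bulk sums of such cells, fewer cells with a gene and fewer RNA molecules per cell cannot be told apart.

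All 7 HoxD genes were at 0 UMIs in the All-Hypo cells of each of the 6 control embryos and were found in each of the 9 *Eed-cKO* embryos. The share of all genes with such a pattern was not counted. The 6 controls together held 37634722 All-Hypo UMIs, which allows a level of up to 0.0797 CPM for a count of 0. This limit, 3 counts over the group, and every interval given here cover counting error only. *Hoxd3* and *Hoxd4* are the genes of the forward-expressed end. *Hoxd3* was at 1.22, 2.62 and 4.78 CPM in the lowest, median and highest *Eed-cKO* embryo (81 UMIs in 72 cells), with a mean of 2.66 ± 1.18 CPM (SD, n = 9), at least 33.4-fold higher than in control. *Hoxd4* was at 5.65, 11.8 and 18.2 CPM (385 UMIs in 342 cells), with a mean of 11.9 ± 3.48 CPM (SD, n = 9), at least 149.7-fold higher. The spread of *Hoxd3* rested on 3 to 17 UMIs per embryo.

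The central members *Hoxd8* and *Hoxd9* are used in the trunk. *Hoxd8* was at 6.17, 11.8 and 14.3 CPM in the lowest, median and highest embryo (358 UMIs in 293 cells), with a mean of 10.97 ± 2.53 CPM (SD, n = 9), at least 137.6-fold higher than in control. *Hoxd9* was at 4.70, 9.02 and 15.9 CPM (296 UMIs in 256 cells), with a mean of 9.14 ± 3.37 CPM (SD, n = 9), at least 114.7-fold higher. Every embryo held at least 6 UMIs of each.

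*Hoxd10*, *Hoxd11* and *Hoxd13* belong to the end of the cluster used in the tail, limbs and genital tubercle. *Hoxd10* was at 21.8, 26.8 and 46.7 CPM (936 UMIs in 607 cells), with a mean of 29.7 ± 8.29 CPM (SD, n = 9), at least 372.3-fold higher than in control. *Hoxd11* was at 0.627, 4.45 and 5.42 CPM (120 UMIs in 99 cells), with a mean of 3.67 ± 1.76 CPM (SD, n = 9), at least 46.1-fold higher. *Hoxd13*, the last gene of the cluster, was at 2.46, 5.70 and 11.1 CPM (193 UMIs in 150 cells), with a mean of 6.24 ± 2.59 CPM (SD, n = 9), at least 78.3-fold higher. Levels are not compared between genes here, since the tags are not scaled to length.

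**Figure D1:**
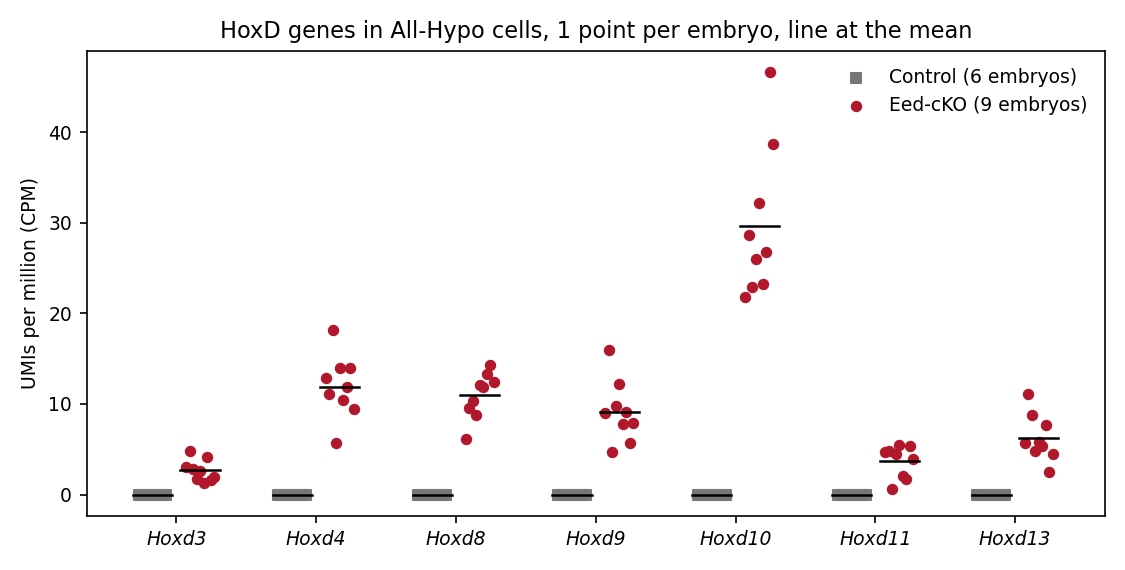
CPM (vertical axis) of the 7 HoxD genes in All-Hypo cells, with 1 point per embryo and a line at the group mean. The 6 control embryos sit at 0 for every gene, and the 9 *Eed-cKO* embryos sit above 0, for *Hoxd10* between 21.8 and 46.7 CPM.

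In edgeR's quasi-likelihood test over 12570 genes, *Hoxd4*, *Hoxd8*, *Hoxd9*, *Hoxd10* and *Hoxd13* were tested and all 5 rose in *Eed-cKO*, against 15% of all genes tested that rose. Their adjusted p-values lay between 1.1e-10 for *Hoxd10* and 8.8e-08 for *Hoxd13*. *Hoxd3* and *Hoxd11* were below the filter on low counts, and both rose in the same test without that filter. In neuron-like cells alone (5228 control and 4651 *Eed-cKO* cells) *Hoxd4*, *Hoxd8*, *Hoxd9* and *Hoxd10* passed the filter, and all 4 rose, against 8.04% of the 11931 genes tested. Since members passed the filter only through the group where they were high, these counts describe the members and are no test of the cluster.

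Most cells with a HoxD gene held 1 UMI of it. The share of positive cells with exactly 1 UMI was 65.9% for *Hoxd10* (402 of 610 cells) and between 76.1% and 89.6% for the other 6. The highest number in a cell was 7, for *Hoxd10*. Summed over the 7 genes, 1351 of 6471 *Eed-cKO* All-Hypo cells (20.9%) held a HoxD UMI, with 14.9%, 20.2% and 28.4% in the lowest, median and highest embryo. None of 6864 control cells did, which allows a share of up to 0.0437%.

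Female and male *Eed-cKO* embryos (5 and 4) were compared over 12800 genes, and none of the 7 HoxD genes passed the test, against 0.0156% of genes that did. At an unadjusted p under 0.05 edgeR listed 1, *Hoxd11* (log2 difference, female minus male, -0.99 ± 0.41 SE, p = 0.0286, adjusted p = 1.0). DESeq2 called none of the 7 either.

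The cells of *Eed-cKO* embryos that held HoxD UMIs were mainly neural. In the non-neural cells (endothelial-like, pericyte-like, leptomeningeal-like and microglia-like together, 464 *Eed-cKO* and 322 control cells) the 7 genes gave 18 UMIs in *Eed-cKO* and 1 in control, a *Hoxd13* UMI. No member passed the filter there, so none was tested in that comparison. To set the shares at 1 depth, each cell with at least 2000 UMIs was thinned to 2000. The non-neural share with any HoxD UMI was then 2.00% (7 of 350 cells, median depth before thinning 3702 UMIs). The source of these UMIs was not tested. The share is given for comparison, since the authors took vascular cells and microglia as not targeted by *Sox1-Cre*. It also includes leptomeningeal-like cells, for which this was not tested. Neuron-like cells (median depth 4827 UMIs) were at 12.5% (537 of 4307 cells), with 9.83%, 12.7% and 17.02% in the lowest, median and highest embryo.

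The share with any HoxD UMI differed widely among neural cell kinds. Astrocyte-like cells were at 18.2% (49 of 269 cells; 6.67%, 16.7% and 31.4% in the lowest, median and highest of 9 embryos), and overlapped with the neuron-like cells. Cluster 21a, a part of cluster 21, was at 22.4% (28 of 125 cells). It held 134 *Eed-cKO* cells and 1 control cell and was left unnamed, since its cells carried both astrocyte markers (*Slc1a3* in 96.3%) and markers of ciliated ependymal cells (*Foxj1* in 88.8%). Oligodendrocyte precursor-like cells were few, and 10 of 29 (34.5%, 95% exact binomial interval 17.9% to 54.3%) held a HoxD UMI. Cycling progenitor-like cells were at 7.92% (8 of 101).

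Tanycyte-like cells, radial glia of the third ventricle wall, were at 1.53% (3 of 196 cells, median depth 3339 UMIs), no higher than the non-neural share. Leptomeningeal-like cells were at 1.44% (3 of 208) and endothelial-like cells at 3.06% (3 of 98). Cluster 22, led by *Alas2*, *Ccno* and *Cga* and made of *Eed-cKO* cells alone, was at 12.4% (27 of 217 cells). Of its 223 cells, 60, 89 and 72 came from embryos 4, 5 and 9 and 1 each from embryos 1 and 6.

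By gene, 49 pairs of a HoxD gene and a cell kind were compared with the neuron-like cells of the same embryo at 2000 UMIs. By the exact paired permutation test over embryos (sign flips, two-sided), 0 of 49 passed after Benjamini-Hochberg adjustment, 11 had an unadjusted p under 0.05, and the smallest adjusted p was 0.0957. With 9 embryos the smallest p this test can give is 0.0039, and with 7 embryos 0.0156, so that no single comparison among 49 could pass on its own. *Hoxd8* UMIs were in 6.99% ± 5.50 of astrocyte-like cells and 1.54% ± 0.81 of neuron-like cells (SD, n = 9), higher in 7 of 9 embryos (exact p = 0.0273, adjusted p = 0.134). *Hoxd10* UMIs were in 4.23% ± 2.97 of astrocyte-like cells and 6.75% ± 1.56 of neuron-like cells, lower in 7 of 9 embryos (exact p = 0.0234, adjusted p = 0.128). Sums of all UMIs per embryo and kind, which hold more molecules, were compared separately.

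All 7 HoxD genes had UMIs in both astrocyte-like and neuron-like cells, and the levels of 4 of them differed by the test. *Hoxd3*, *Hoxd8* and *Hoxd13* were higher in astrocyte-like cells and *Hoxd10* was lower, and *Hoxd4*, *Hoxd9* and *Hoxd11* did not pass. Neuron-like cells in these comparisons include cluster 0, described below, which held 701 of their 831 *Hoxd10* UMIs. In the pooled neurons outside it *Hoxd10* was at 2.49, 8.06 and 18.2 CPM in the lowest, median and highest embryo. Astrocyte-like cells were at 0, 21.1 and 53.4 CPM, so *Hoxd10* was lower only against all neuron-like cells together. The difference from neurons outside cluster 0 was not tested. *Hoxd8* was at 11.2, 41.6 and 105.7 CPM in the astrocyte-like cells of the lowest, median and highest embryo, against 2.00, 6.63 and 11.4 CPM in neuron-like cells. The 2 ranges overlapped only at their ends, and within each of the 9 embryos the astrocyte-like value was the higher one. *Hoxd13* was at 9.24, 25.8 and 63.4 CPM in astrocyte-like cells, against 1.93, 3.72 and 8.00 CPM in neuron-like cells. These ranges did not overlap.

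In 1 edgeR fit with the embryo as a block, the log2 difference between astrocyte-like and neuron-like cells was 2.17 ± 0.31 for *Hoxd8* (SE, adjusted p = 7.2e-10) and 2.86 ± 0.37 for *Hoxd13* (SE, adjusted p = 1.4e-11), with 9 embryos. *Hoxd3* was also higher (1.44 ± 0.54, adjusted p = 0.0194) and *Hoxd10* lower (-0.80 ± 0.30, adjusted p = 0.0188). Of 15117 genes, 23.7% were higher and 26.6% lower in astrocyte-like cells, so 3 higher and 1 lower of 7 members is close to the share of all genes. The *Hoxd8* and *Hoxd13* differences passed under every alternative run, with a range of 2.03 to 2.47 and of 2.59 to 3.21 over the 9 fits that dropped 1 embryo. The *Hoxd10* difference did not pass without embryo 2 (adjusted p = 0.217), 5 (0.142), 6 (0.0975) or 8 (0.303), nor with library size alone (0.055), DESeq2 (0.285) or clusters made with Hox genes kept (0.0671). *Hoxd3* did not pass without embryo 1 (adjusted p = 0.06), 3 (0.151) or 4 (0.0706), with DESeq2 (0.343) or in thinned cells (0.071). All 6 neuron markers of the fixed list had UMIs in astrocyte-like cells, in 10.8% to 36.9% of them against 58.8% to 98.6% of neuron-like cells, and their part in these values was not tested.

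The make-up of HoxD UMIs gives the same counts as shares, so it is no further support. A higher share of some genes lowers the shares of the others. Of 1821 HoxD UMIs in neuron-like cells, *Hoxd10* gave 45.6% (95% exact binomial interval 43.3% to 48.0%), *Hoxd8* 10.6% (9.22% to 12.1%) and *Hoxd13* 4.94% (3.99% to 6.04%). Of 192 in astrocyte-like cells, *Hoxd10* gave 15.6% (10.8% to 21.5%), *Hoxd8* 30.7% (24.3% to 37.8%) and *Hoxd13* 24.5% (18.6% to 31.2%). The *Hoxd8* and *Hoxd13* shares were higher in astrocyte-like cells in 9 of 9 embryos and the *Hoxd10* share was lower in 8 of 9. In CPM, *Hoxd10* was higher in astrocyte-like cells in 3 of 9 embryos. Astrocyte-like cells were 5.08% of *Eed-cKO* cells and held 4.34% of the UMIs of all genes. They held 23.5% of all *Hoxd13* UMIs and 3.19% of all *Hoxd10* UMIs.

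Cluster 21a followed the astrocyte-like pattern. *Hoxd8* was at 23.99, 63.3 and 120.4 CPM in the lowest, median and highest of the 6 embryos with at least 10 such cells, all above the highest neuron-like value. *Hoxd13* was at 0, 29.6 and 143.9 CPM and overlapped with neuron-like cells. In the same fit *Hoxd8* was higher than in neuron-like cells by 2.86 ± 0.38 (log2, SE, adjusted p = 4.2e-11) and *Hoxd13* by 3.08 ± 0.50 (adjusted p = 3.5e-08), with 21.2% of genes higher and 24.7% lower. Both held with each embryo left out (2.79 to 3.21 and 2.49 to 3.59). *Hoxd10* was lower by the test (-1.08 ± 0.46, adjusted p = 0.0469), but not without any of embryos 2 to 8 (adjusted p from 0.0549 to 0.306). The neuron-like cells set against it again include cluster 0, and *Hoxd10* was at 6.64, 15.3 and 72.2 CPM in cluster 21a. Of the fixed astrocyte and ependymal markers, *Agt* (0.746% of cells) and *Ntsr2* (2.24%) were near 0 there. In the 24 ependymal-like cells *Hoxd8* was at 53.2 CPM (8 UMIs) and *Hoxd13* at 6.65 CPM (1 UMI). In the 16 cells of cluster 21d, an unnamed part of cluster 21, these genes were at 102.3 CPM (7 UMIs) and 87.7 CPM (6 UMIs). No embryo had 10 cells of either kind, so neither was compared.

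**Figure D2:**
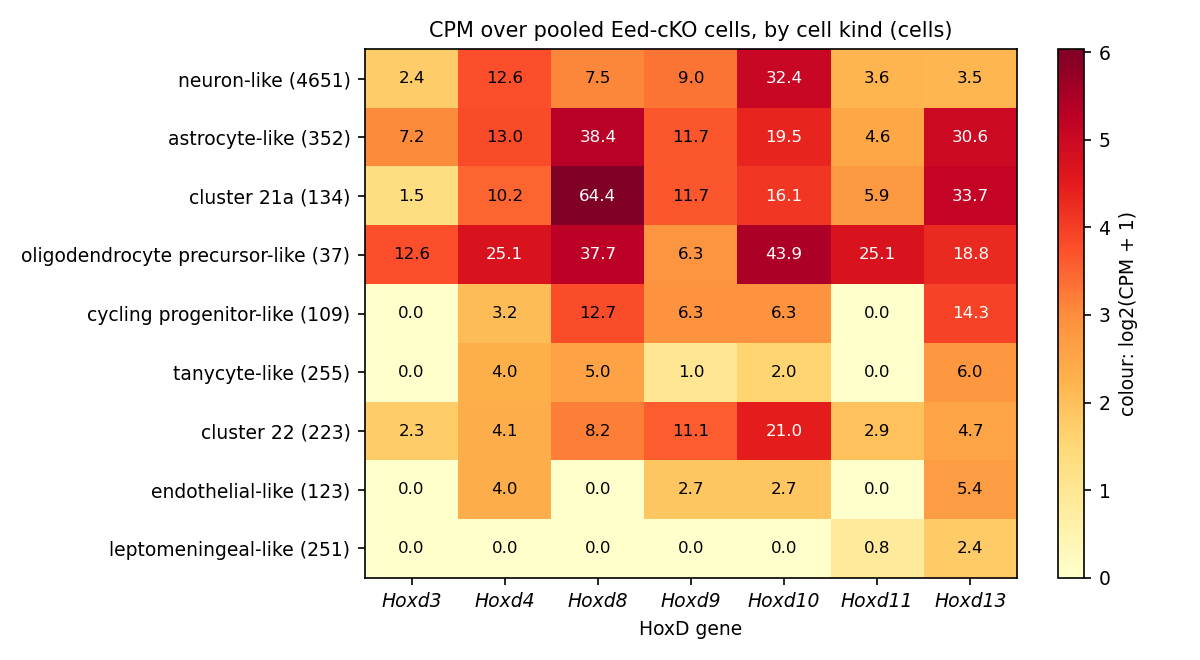
HoxD levels by cell kind in pooled *Eed-cKO* cells, with genes in columns, cell kinds in rows (number of cells in brackets), the CPM written in each cell and the colour on a log2(CPM + 1) scale. *Hoxd8* and *Hoxd13* are at 38.4 and 30.6 CPM in astrocyte-like cells and at 7.5 and 3.5 CPM in neuron-like cells, and tanycyte-like cells stay at or below 6.0 CPM for every gene.

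The remaining kinds differed in summed HoxD level, with 96.3 CPM in cluster 10, 66.4 CPM in cluster 3 and 54.3 CPM in cluster 22. Tanycyte-like cells (255 cells, 8 embryos in the fit) gave 18 HoxD UMIs, 17.9 CPM against 70.9 CPM in neuron-like cells. *Hoxd10* (2 UMIs) and *Hoxd9* (1 UMI) were lower there than in neuron-like cells by 4.00 ± 0.62 and 3.09 ± 0.86 on the log2 scale, and both passed with each embryo left out and under the 7 other settings. *Hoxd4* (4 UMIs), *Hoxd11* (0 UMIs) and *Hoxd3* (0 UMIs) were lower too, so that 5 of 7 members were lower, against 23.8% of genes. *Hoxd4* did not pass without embryo 2 (adjusted p = 0.053), 5 (0.0635), 6 (0.106) or 8 (0.0655), *Hoxd11* without embryo 5 (0.0523), and *Hoxd3* without any 1 of the 9 embryos (0.0578 to 0.12). *Hoxd8* (5 UMIs) and *Hoxd13* (6 UMIs) did not pass the test, with log2 differences of -0.71 ± 0.64 and 0.46 ± 0.68.

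Leptomeningeal-like cells (251 cells, 7 embryos) held 0 UMIs of *Hoxd3*, *Hoxd4*, *Hoxd8*, *Hoxd9* and *Hoxd10*, and these 5 were lower than in neuron-like cells, against 29.0% of genes. All but *Hoxd3* held with each embryo left out, and *Hoxd3* passed with none left out only (adjusted p = 0.0498, and 0.052 to 0.14 without an embryo). Endothelial-like cells (123 cells, 6 embryos) held 0 UMIs of *Hoxd8* and *Hoxd11* and 2 of *Hoxd10*, and these 3 were lower, against 27.3% of genes. *Hoxd8* did not pass there without embryo 5 (adjusted p = 0.0584) or 6 (0.0502), with DESeq2 (0.173) or in thinned cells (0.213). *Hoxd11* (adjusted p = 0.0471) passed under none of the 7 other settings (0.0557 to 0.789), nor without embryo 1, 2, 4, 5, 6, 7 or 8 (0.0542 to 0.216). The authors took vascular cells as not targeted by *Sox1-Cre*, and whether it acted in meningeal cells was not tested.

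Cycling progenitor-like cells (109 cells, 6 embryos) held 27 HoxD UMIs. *Hoxd13* was higher (9 UMIs, 1.74 ± 0.65 on the log2 scale, adjusted p = 0.0199) and *Hoxd10* and *Hoxd4* were lower (4 and 2 UMIs), with 21.1% of genes higher and 23.4% lower. The *Hoxd13* difference turned to -0.07 (adjusted p = 0.981) in thinned cells and did not pass without embryo 4 (0.243) or 5 (0.175). *Hoxd4* did not pass without embryo 1, 2, 4, 5, 6, 7 or 8 (adjusted p from 0.0506 to 0.154). In cluster 10, unnamed cells of low depth (median 1010 UMIs), *Hoxd4* was higher (13 UMIs, adjusted p = 0.0382, lost without embryo 7 or 8 at 0.184 and 0.335) and *Hoxd10* lower (adjusted p = 0.00116, lost without embryo 8 at 0.0757), with 5.65% of genes higher and 20.2% lower. In clusters 22 and 3 edgeR called none of the 7 (2 in each had an unadjusted p under 0.05), and DESeq2 called none of the 5 and 7 for which it gave an adjusted p.

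Within neurons, 1 cluster held most of the HoxD UMIs. Cluster 0 had 1536 *Eed-cKO* and 54 control cells, was led by *Tfap2b*, *Lamp5*, *Gata3* and *Dmbx1* besides Hox genes, and made up 25.3% to 41.9% of the neuron-like cells of each *Eed-cKO* embryo. Its cells held the neuron markers *Stmn2* (99.3%) and *Tubb3* (97.5%). *Hoxd10* was at 65.4, 83.7 and 114.2 CPM in cluster 0 of the lowest, median and highest embryo and at 2.49, 8.06 and 18.2 CPM in the pooled other neurons. The ranges did not overlap. Cluster 0 held 701 of the 831 *Hoxd10* UMIs of neuron-like cells, and 78.3%, 83.7% and 93.1% of them in the lowest, median and highest embryo.

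*Hoxd4* was at 15.8, 28.9 and 49.2 CPM in cluster 0 and at 0, 3.44 and 7.66 CPM in the other neurons. *Hoxd9* was at 11.01, 18.1 and 32.7 CPM against 1.10, 3.10 and 5.16 CPM. Neither gene overlapped between cluster 0 and the rest. *Hoxd8* was at 0, 17.3 and 25.02 CPM against 0, 1.93 and 7.46 CPM, and was higher in cluster 0 in 8 of 9 embryos. *Hoxd3*, *Hoxd11* and *Hoxd13* were each higher in cluster 0 in 9 of 9 embryos, at medians of 5.36, 12.4 and 8.06 CPM against 0.712, 0 and 1.07 CPM.

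By edgeR, with each neuron cluster set against the mean of the other 12 clusters in 1 blocked fit over 14057 genes, all 7 HoxD genes were higher in cluster 0, against 17.9% of genes. The largest difference was that of *Hoxd10*, 4.15 ± 0.19 (log2, SE, adjusted p = 2.6e-51), and the smallest that of *Hoxd3*, 2.12 ± 0.35 (adjusted p = 1.4e-07). These fitted differences depend on the prior count where other clusters held 0 UMIs, whereas the CPM above do not. None of the 7 was lost with any embryo left out, and DESeq2 lost *Hoxd13* (adjusted p = 0.104) and gave no adjusted p for *Hoxd3* and *Hoxd11*. At 2000 UMIs, 30.7% of cluster 0 cells (442 of 1440) held any HoxD UMI, with 25.2%, 30.6% and 38.0% in the lowest, median and highest embryo, against 3.31% of other neurons (95 of 2867; 1.37%, 2.65% and 6.67%). Median depths were alike, 4790 and 4850 UMIs.

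Cluster 15, led by *Dlx6os1* and *Lhx6*, which mark GABAergic interneurons of the ventral forebrain, was the other cluster in which all 7 were higher, against 7.89% of genes. *Hoxd10* was at 0, 34.3 and 77.5 CPM in the lowest, median and highest of 7 embryos (2.69 ± 0.49, adjusted p = 2.8e-06), and *Hoxd4* at 0, 18.8 and 124.0 CPM (2.88 ± 0.50, adjusted p = 1.1e-06). These 2 held with each embryo left out, and the other 5 did not. *Hoxd3* was lost without embryo 1 (adjusted p = 0.169) or 3 (0.163), *Hoxd8* without 5 (0.151), *Hoxd9* without 1 (0.174) or 6 (0.664), *Hoxd11* without 4 (0.234) and *Hoxd13* without 5 (0.142) or 7 (0.119). Those 5 were counted from 3 to 8 UMIs each.

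Other neuron clusters held few. *Hoxd10* was higher in cluster 13, led by *Trh* and *Samd3* (2.16 ± 0.43, adjusted p = 6.1e-05, against 5.91% of genes), but did not pass without embryo 8 (1.5, adjusted p = 0.0673). *Hoxd9* was higher in cluster 4, led by *Sp8* and *Pax6* (2.40 ± 0.64, adjusted p = 0.0111, against 2.34% of genes), but not without embryo 7 (1.55, adjusted p = 0.366). Cluster 6, led by *Foxb1*, which marks mammillary neurons, gave 5 HoxD UMIs in 426 cells. *Hoxd4* was at 0 UMIs there and was lower by the test, against 5.04% of genes, though not without embryo 6 (adjusted p = 1.0). At 2000 UMIs 0 of 387 cells of cluster 6 held a HoxD UMI, which allows a share of up to 0.775%. Cluster 11, led by *Emx2* and *Fezf2*, gave 3 HoxD UMIs in 247 cells.

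**Figure D3:**
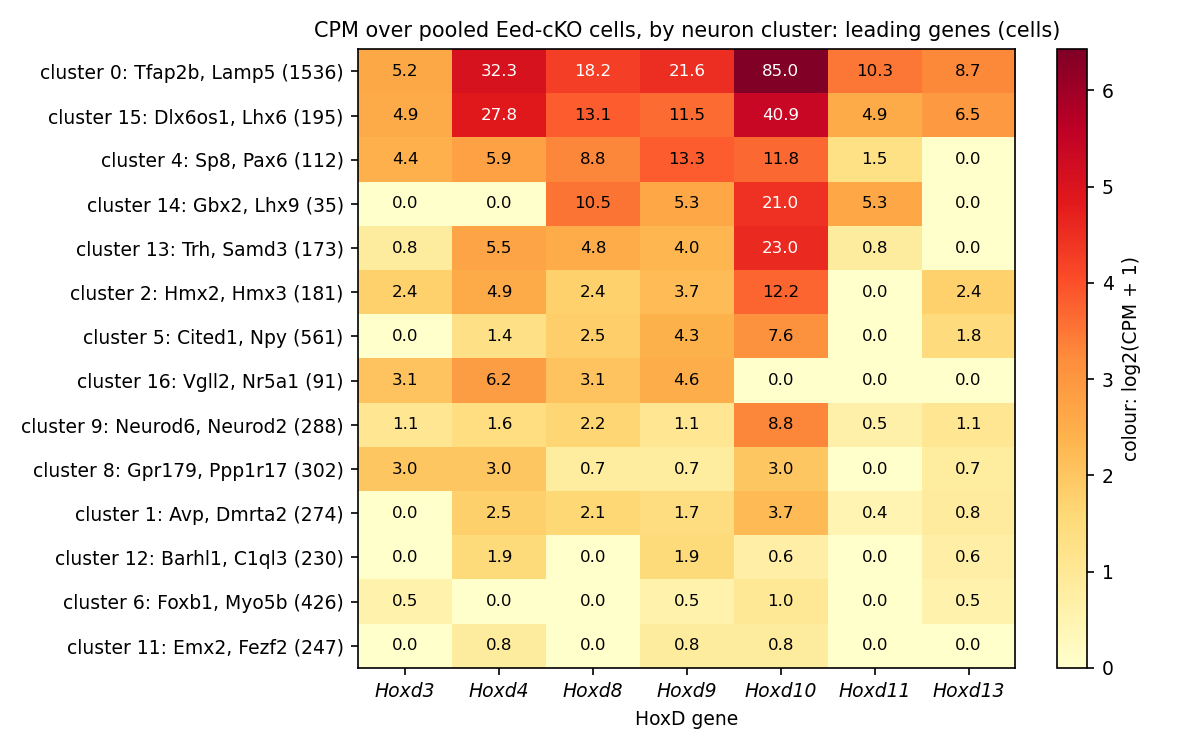
HoxD levels by neuron cluster in pooled *Eed-cKO* cells, with genes in columns, clusters with 2 leading genes in rows (number of cells in brackets), the CPM written in each cell and the colour on a log2(CPM + 1) scale. Cluster 0 holds *Hoxd10* at 85.0 CPM and every other member above 5 CPM, and clusters 6 and 11 stay at or below 1.0 CPM.

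Much of the HoxD signal was thus in clusters that control embryos hardly had. The 6 clusters with under 5% control cells (0, 19e, 21a, 21c, 22 and 25, the letters marking parts of a divided cluster) held 29.1% of *Eed-cKO* cells and 31.8% of their UMIs, but 72.1% of their HoxD UMIs. By gene this was 81.0% for *Hoxd11*, 80.5% for *Hoxd10*, 73.3% for *Hoxd4*, 69.6% for *Hoxd9*, 61.7% for *Hoxd3*, 60.9% for *Hoxd8* and 53.0% for *Hoxd13*. The clusters were drawn from both genotypes together without Hox genes, although genes that vary with Hox genes took part.

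Neurons were also split by transmitter class into Glut (UMIs of *Slc17a6*, the glutamate transporter, only), GABA (*Slc32a1*, the GABA transporter, only) and Glut/GABA (both). Every HoxD gene was higher in Glut/GABA than in Glut cells, against 4.03% of 14105 genes. *Hoxd10* was at 52.9, 66.0 and 111.6 CPM in the Glut/GABA cells of the lowest, median and highest embryo, at 0, 35.4 and 52.0 CPM in GABA cells and at 5.07, 9.28 and 31.7 CPM in Glut cells. The Glut/GABA range lay above both others. Cluster 0, which held 701 of the 831 *Hoxd10* UMIs of neuron-like cells, was not set apart in these classes. Glut/GABA cells held 487 *Hoxd10* UMIs, so the classes and cluster 0 are not separate views of HoxD levels. Differences between classes within or outside cluster 0 were not tested. The log2 difference of *Hoxd10* was 2.57 ± 0.17 between Glut/GABA and Glut (SE, adjusted p = 2.1e-26), 1.496 ± 0.240 between GABA and Glut (adjusted p = 5.8e-07) and 1.08 ± 0.19 between Glut/GABA and GABA (adjusted p = 9.4e-06). *Hoxd10* was the only member to pass in the last of these, against 5.87% of genes.

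Between GABA and Glut cells 5 members were higher (*Hoxd4*, *Hoxd8*, *Hoxd9*, *Hoxd10* and *Hoxd13*), against 2.52% of genes, *Hoxd13* by 2.47 ± 0.53 (adjusted p = 3.1e-04). Without the embryo block, *Hoxd8* (adjusted p = 0.055) and *Hoxd4* (0.0812) did not pass. *Hoxd8* also did not pass without embryo 1, 3, 4 or 7 (adjusted p from 0.0996 to 0.138), nor *Hoxd4* without 3, 4 or 5 (0.0684 to 0.165), and *Hoxd11* was lost between Glut/GABA and Glut without embryo 4 (0.0886). The classes moved with depth, since a cell must give UMIs of both transporters to be Glut/GABA, and median depths were 6236.5 UMIs in Glut/GABA, 5319 in Glut and 4316.5 in GABA cells. With cells redrawn at 2000 UMIs, 4 of the 13 calls remained, *Hoxd10* and *Hoxd13* between GABA and Glut and *Hoxd8* and *Hoxd10* between Glut/GABA and Glut.

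At 2000 UMIs each HoxD gene was found in few neuron-like cells, from 0.441% for *Hoxd3* to 6.27% for *Hoxd10*. Few cells with more than 1 HoxD gene could thus be seen at this depth. Of the 537 neuron-like cells with a HoxD UMI at 2000 UMIs, 461 held 1 HoxD gene, 73 held 2, 2 held 3 and 1 held 4. Only the pair *Hoxd4* and *Hoxd10* had at least 5 cells expected under independence within each embryo. It was found in 23 cells against 8.92 expected, a ratio of 2.58 (exact permutation test over 9 embryos, two-sided, p = 0.0352, adjusted p = 0.0438). It did not pass without embryo 3, 4, 5, 6, 7 or 8 (adjusted p from 0.0604 to 0.0776, ratios from 2.22 to 2.73).

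Pairs with genes of other Hox clusters could be tested more often. There were 27 testable pairs of a HoxD gene with a HoxA, HoxB or HoxC gene. By the same exact test, 20 passed as above the expected number (adjusted p under 0.05). All 27 ratios were above 1, from 1.70 to 3.99. The highest was *Hoxd4* with *Hoxa5*, in 26 cells against 6.51 expected. Of all 96 Hox pairs tested, 82.3% passed as above expected, and the lowest of the 96 ratios was 1.36. The share of HoxD pairs that passed was thus close to that of Hox pairs in general. When the expected number was taken within embryo and cluster, 0 of 58 pairs with a HoxD gene passed, 7 had an unadjusted p under 0.05 and the smallest adjusted p was 0.143. Over the 28 pairs with both values the median ratio went from 2.74 to 1.25 (0.85 to 1.84) and was lower in all 28. Of the 58 ratios, 46 were above 1. With 183 Hox pairs in this adjustment, a pair alone at the smallest possible p of 0.0039 could not pass, so the count of 0 does not show that co-detection within clusters is absent.

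**Figure D4:**
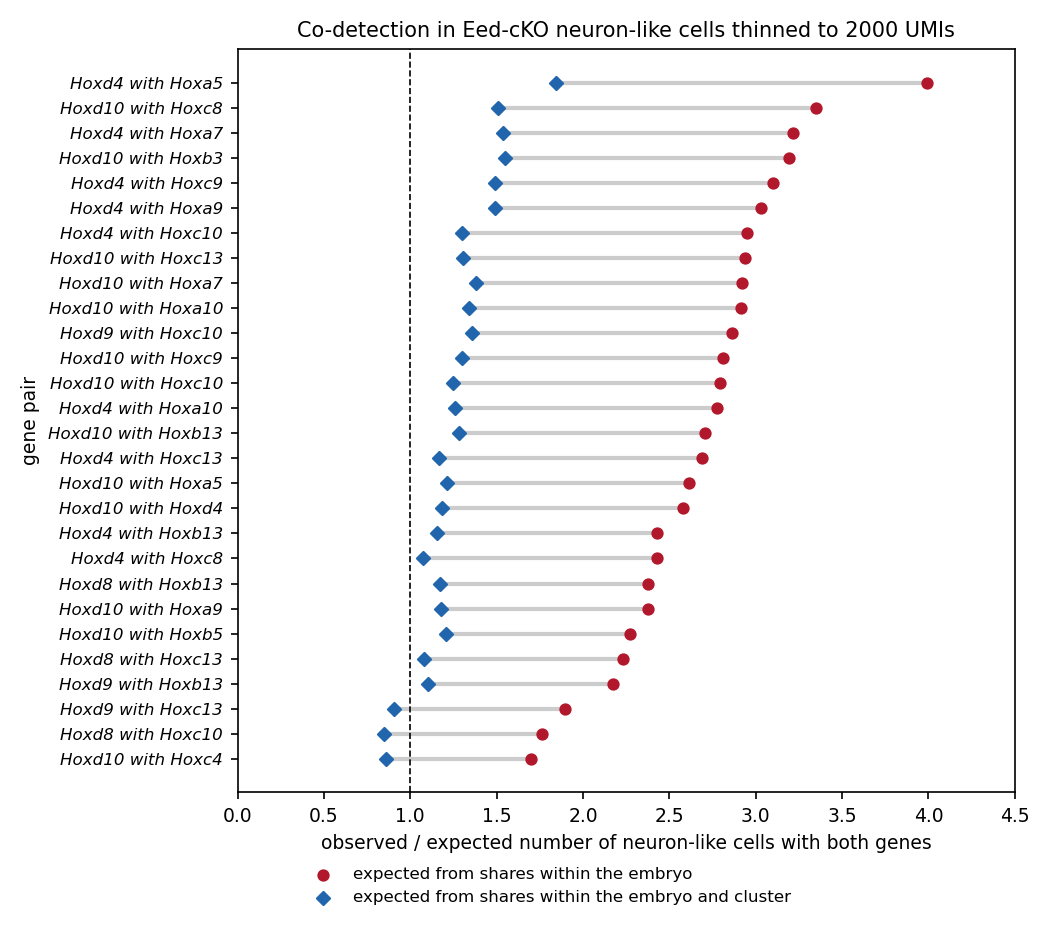
Observed over expected number of neuron-like cells with both genes of a pair (horizontal axis), for the 28 pairs with a HoxD gene tested both ways. Red circles use the shares within an embryo and blue diamonds the shares within an embryo and cluster. Every diamond lies left of its circle, between 0.85 and 1.84, and the dashed line marks a ratio of 1.

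Neurons with a HoxD UMI more often held UMIs of each other cluster. HoxA UMIs were in 46.7% of them and in 14.4% of neurons without a HoxD UMI, HoxB UMIs in 37.1% and 11.9%, and HoxC UMIs in 61.5% and 17.7%, and each was higher in 9 of 9 embryos. Only 97 of 537 (18.1%) held no UMI of another Hox cluster. Within cluster 0 the contrast was smaller, at 47.5% and 42.3% for HoxA, 36.2% and 33.0% for HoxB and 67.0% and 54.4% for HoxC. There HoxA, HoxB and HoxC were higher in 7, 7 and 8 of 9 embryos. Outside cluster 0 HoxD-positive neurons were rare, but 43.2% of the 95 held HoxA UMIs against 4.37% of HoxD-negative neurons, 41.1% against 4.29% held HoxB UMIs and 35.8% against 4.47% held HoxC UMIs. HoxA and HoxC were higher in 7 of the 7 embryos with enough such cells, and HoxB in 6 of 7. Among astrocyte-like cells the values were 46.9% and 38.2% for HoxA, 34.7% and 26.8% for HoxB and 28.6% and 22.7% for HoxC, higher in 2, 4 and 2 of the 4 embryos with enough such cells. In cluster 21a they were 32.1% and 29.9% for HoxA, 32.1% and 14.4% for HoxB and 28.6% and 29.9% for HoxC. These shares are descriptions, given with no test.

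**Figure D5:**
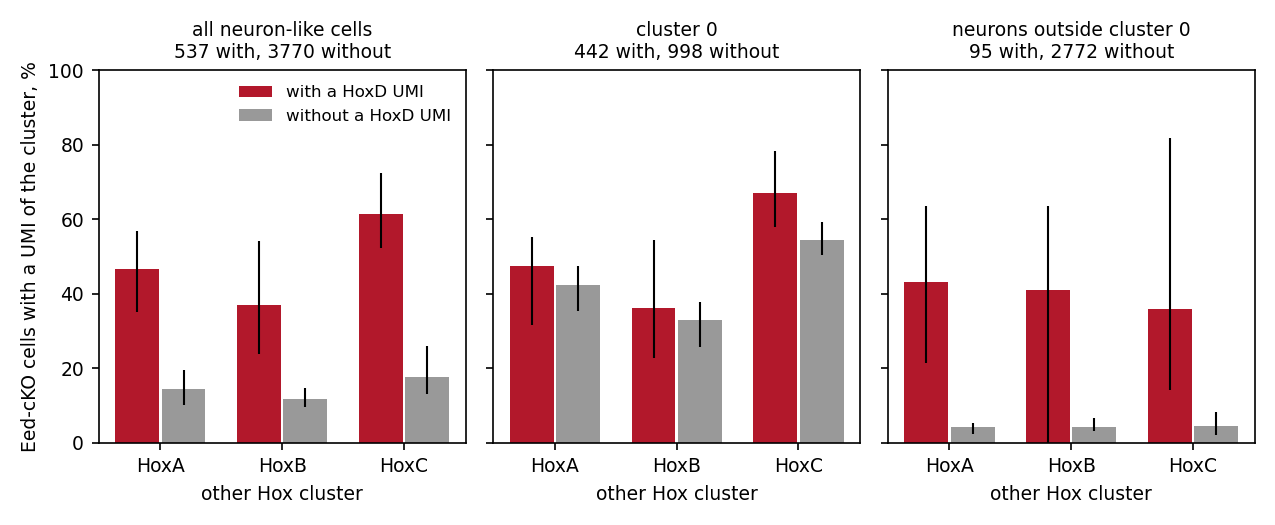
Share of *Eed-cKO* cells thinned to 2000 UMIs that held a UMI of the HoxA, HoxB or HoxC cluster (vertical axis, %), in cells with (red) and without (grey) a HoxD UMI. Bars are pooled cells and lines span the lowest to the highest embryo. In cluster 0 the bars of a pair are closer, for HoxA 47.5% and 42.3% and for HoxC 67.0% and 54.4%. Outside it they stand further apart, for HoxA at 43.2% and 4.37%.

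A list of 11 genes was fixed by name as neighbours of the cluster, and their distance from it was not checked. Of the 8 tested in All-Hypo cells, *Nfe2l2*, a regulator of the oxidative stress response, rose (13.9 ± 3.56 CPM against 3.84 ± 1.67 CPM, log2 difference 1.82 ± 0.24, adjusted p = 1.1e-05). This 1 of 8 is close to the 15% of all genes that rose. *Lnp* (-0.31, adjusted p = 0.0021) and *Atf2* (-0.28, adjusted p = 0.00518) fell. The share of all genes that fell is not given here, so these 2 falls are not read as a result about the neighbours. The other 5 did not pass, with log2 differences from -0.21 for *Mtx2* to -0.04 for *Atp5g3*. The median of the list was -0.17 against 0.01 over all genes. Inside the cluster, the noncoding *Haglr* gave 20 UMIs in *Eed-cKO* and 0 in control, and the antisense *Hoxd3os1* gave 32 and 1. Neither passed the filter.

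All 20 tested genes of the other Hox clusters (of 27 with a row) rose in the same comparison, against 15% of all genes tested. Like the HoxD genes, they gave 0 or 1 UMI each in control, so that they passed the filter through the *Eed-cKO* embryos. Of the 9 TALE homeodomain partners that bind DNA with Hox proteins, *Meis1* (29.2 ± 6.80 CPM against 7.68 ± 2.24 CPM, log2 difference 1.89 ± 0.18, adjusted p = 9.9e-08) and *Pbx4* (0.32 ± 0.11, adjusted p = 0.0365) rose, and 7 did not pass, beside the same 15% of all genes, so that this count is near the background. Among known activators of Hox genes, *Rarb*, a retinoic acid receptor, rose (8.34 ± 1.53 CPM against 5.67 ± 0.90 CPM, 0.52 ± 0.16, adjusted p = 0.0229). *Evx1* gave 23 UMIs in *Eed-cKO* and 0 in control and *Gdf11* gave 21 and 14, both below the filter.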

How the data were processed

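Single-cell libraries of E18.5 mouse hypothalamus were made by droplet capture, and the authors deposited 1 table of UMI counts (reads aligned to mm10 with STAR 2.5.2b and handled with SAMtools 1.3, per the labels), unnormalised, with genes in rows and cells in columns. Cells were assigned to libraries by the start of the column name. The members and the gene lists were chosen with earlier results of these data known.

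Counts were scaled and log transformed in scanpy 1.11.5, and 2000 variable genes without Hox genes, 30 principal components and 15 neighbours gave 27 Leiden clusters (resolution 1), some of them split further. Doublets were not removed, and leaving out the 6% of cells with the highest Scrublet score was an alternative. UMIs were summed per embryo, and per embryo and kind with at least 10 cells, and were tested with edgeR 4.0.16 (quasi-likelihood, TMM, R 4.3.3) with Benjamini-Hochberg adjustment over all genes tested. A gene needed 15 UMIs in all, 2 in 1 sum and, between genotypes and sexes, a median log2 CPM of 1.5. Comparisons within *Eed-cKO* embryos had the embryo as a block, since kinds come from the same embryos. Shares of cells and co-detection were taken after thinning to 2000 UMIs and tested by exact sign flips over embryos, with pairs of at least 5 expected cells. DESeq2 1.42.0 and limma 3.58.1 were alternatives. Named genes were the members, the members called in each comparison and the members of the fixed lists. The embryo was the replicate, and the labels' library numbers were not used as replicates. Promoter sequences were read from RefSeq (GRCm38.p6), in which all 9 members had an entry. The edgeR fits by genotype, cell kind, neuron cluster and transmitter class were checked on simulated sums. The genes changed there were not drawn from those with low counts, so this check does not cover calls that rest on few UMIs. One gene named by the rule on likeness to the summed HoxD level is not reported here.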

Additional observations from a re-analysis of the deposited data

How the results depend on the processing

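All 5 HoxD calls between genotypes in All-Hypo cells passed under every alternative run and with each embryo left out (5 to 5), also without cells of shared barcodes and without the control library of most cells, both chosen after seeing the data. Without the filter 7 HoxD genes were called there and 7, against 4, in neuron-like cells. Against 25 calls by cell kind, 14 were made with DESeq2, 13 with cells thinned to 2000 UMIs and 16 with Hox genes kept in the clustering, and 15 to 23 with an embryo left out (15 without embryo 5 and 16 without embryo 8). *Hoxd13* in cycling progenitor-like cells turned to -0.068 when thinned. Against 17 calls by neuron cluster 15 to 18 were made with an embryo left out, and against 13 by transmitter class 10 to 13, and 4 when thinned. Shares at matched depth gave 0 to 0 calls. The embryo block is part of the fits within *Eed-cKO*, where samples come from the same embryos. Without the replicate block 25, 17 and 11 calls were counted by kind, neuron cluster and class, and *Hoxd11* in endothelial-like cells did not pass (adjusted p = 0.0611), nor *Hoxd8* and *Hoxd4* between GABA and Glut. No embryo or litter pairs the genotypes. The HoxD pair called (1) gave 0 calls at 1000 UMIs, 3 at 4000, 0 within clusters and 0 to 1 with an embryo left out. The 20 pairs with other Hox genes gave 5, 45, 0 and 14 to 19. Within clusters the ratio fell below 1 for *Hoxc13* with *Hoxd9* (0.907), *Hoxc10* with *Hoxd8* (0.850) and *Hoxc4* with *Hoxd10* (0.857). The cause of these changes was not tested, other than fewer molecules in thinned cells. Library size alone gave 20 calls by kind, losing *Hoxd10* in astrocyte-like cells and cluster 21a (adjusted p = 0.132), *Hoxd4* in cycling progenitor-like (0.0656), *Hoxd11* in endothelial-like (0.0557) and *Hoxd3* in tanycyte-like cells (0.0721). It moved the median of all genes by over 0.1 (log2) in 8 contrasts, among them astrocyte-like (0.126), cluster 21a (0.207), tanycyte-like (0.242) and cluster 10 (0.631), and turned the sign of no HoxD call. DESeq2 gave no adjusted p for some low members. Depth limits single genes most, since most positive cells held 1 UMI.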

Other observations

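Oligodendrocyte precursor-like cells, the myelin-forming lineage, held the HoxD genes at 169.4 CPM in all (27 UMIs in 37 *Eed-cKO* cells). *Hoxd10* gave 7 of these UMIs, *Hoxd8* 6, *Hoxd4* and *Hoxd11* 4 each, *Hoxd13* 3, *Hoxd3* 2 and *Hoxd9* 1. Of the 37 cells, 35 were in cluster 19e (a part of cluster 19), which had no control cell, and no embryo had 10 cells, so no comparison was made. Controls had 67 such cells, all in another cluster, with *Gpr17* and *Pdgfra* among the leading genes.

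Neuron groups set by marker genes held HoxD UMIs in unequal shares at 2000 UMIs. Cells with *Tfap2b*, which encodes an AP-2 transcription factor, held them in 34.0% (119 of 350), above the other neurons in 9 of 9 embryos. Cells with *Lhx9*, a LIM homeodomain gene, were at 25.2% (32 of 127), those with *Sp8*, *Sp9* or *Lhx6* at 23.8% (72 of 303) and those with the neuropeptide gene *Sst* at 22.4% (81 of 361). Cells with *Foxb1* were at 1.80% (9 of 501), above the other neurons in 0 of the 8 embryos compared. None of 25 *Agrp* cells, 44 *Tac2* or *Kiss1* cells or 12 *Crh* cells held one. With so few cells, and 0, 2 and 0 embryos that could be compared, this does not show that HoxD genes are absent there. *Tfap2b* led cluster 0, so its share is not independent of that cluster.

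Over 23 clusters, genes whose level was among the most like the summed HoxD level were *Nkx2-3* (Pearson's r = 0.890), *Nkx2-5* (0.875), *Meis2* (0.845) and *Shox2* (0.803), of 11424 genes compared. Between members, r ran from 0.18 (*Hoxd3* with *Hoxd13*) to 0.82 (*Hoxd8* with *Hoxd9*). The clusters share libraries and differ in depth, and these values are descriptions.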
